A study of Mus musculus with 36 samples.

Results

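The glypicans and syndecans are the 2 gene families whose products carry heparan sulfate on the cell membrane. Their mouse genes are Gpc1 to Gpc6 and Sdc1 to Sdc4. They were taken from the count table by matching Ensembl identifiers to these symbols, and each of the 10 genes matched 1 of the 52636 rows. The test covered 8 of the 10, which had enough counts. Gpc2 and Gpc5 fell under the filter on low counts, and for these only the counts are given.

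Glypicans are held in the outer face of the membrane by a lipid anchor, whereas syndecans span it and have a short cytoplasmic tail that binds kinases and PDZ-domain proteins. Long sulfated sugar chains on both families bind growth factors, Wnt and hedgehog ligands, laminins and receptor phosphatases. Enzymes outside the cell trim these chains, and proteases or lipases can release the core proteins. At the neuromuscular junction, heparan sulfate proteoglycans are known best through agrin, which clusters acetylcholine receptors.

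RNA was sequenced from cells that FACS had sorted out of diaphragm, pectoralis, forelimb and hindlimb muscle of mice with 2 reporter transgenes. GFP was driven by the promoter of S100b and dsRed by the promoter of Cspg4, which encodes NG2, and all 3 groups came from mice carrying both transgenes. NG2DsRed+/S100GFP+ cells were the perisynaptic Schwann cells (PSCs) of the study, S100GFP+ cells its other Schwann cells, and NG2DsRed+ cells the remaining NG2-expressing cells of muscle, such as pericytes. No cells were treated, each library was made from 1 mouse, and ages began at postnatal day 15 and ended at day 21 in the study's methods (in the labels the last day rises from sample to sample, from 21 to 46). The count table has 9 PSC, 8 S100GFP+ and 10 NG2DsRed+ libraries of the 36 in the labels, with 5221655 to 9592875 counts on genes each. A promoter reporter marks every cell that uses the promoter, so a sorted group can hold several cell types. In RNA of sorted pools, fewer cells of a type and less RNA per cell cannot be told apart.

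The gates and the markers were checked first. Cspg4 RNA was at 689 ± 132 CPM (counts scaled to equal library totals, SD, n = 9) in PSCs and 665 ± 138 CPM (n = 10) in NG2DsRed+ cells, against 71.0 ± 42.3 CPM (n = 8) in S100GFP+ cells. S100b RNA was at 255 ± 199, 6.54 ± 4.90 and 29.4 ± 10.1 CPM in the same order. The S100GFP+ libraries had little RNA of the Schwann cell lineage, as the summed level of 6 Schwann cell lineage markers had a median of 108.8 CPM (43.2 to 380) there and 2187 CPM (1713 to 2871) in PSCs. The sum of 7 fibroblast markers was 18890 to 43040 CPM in S100GFP+ libraries, 2657 to 19360 in NG2DsRed+ libraries and 749.7 to 2881 in PSC libraries. Sums of 6 macrophage and leukocyte markers were 1068 to 10370, 12.36 to 66.53 and 34.1 to 570.1 CPM. The PSC sums were mostly Lyz2, at 170 ± 169 CPM, as no other marker of this list had a mean over 3.25 CPM in PSCs. None of the markers of these 3 lists was at 0 in any cell type. NG2DsRed+ libraries held the pericyte and smooth muscle markers, with a sum over 8 genes of 7124 to 15610 CPM. The sum was 781.6 to 1403 CPM in PSCs and 237.2 to 1619 CPM in S100GFP+ libraries. Cspg4, whose promoter drove the dsRed of the sort, is among these 8 genes. It had the highest mean of the list in PSCs (689 ± 132 CPM), followed by Acta2 at 192 ± 114 CPM. The sum of 5 endothelial markers was 1165 to 2618 CPM in NG2DsRed+ libraries, against 96.89 to 466.8 CPM in PSCs and 117.6 to 1980 CPM in S100GFP+ libraries. The part of pericyte, smooth muscle and endothelial RNA in the differences between PSCs and NG2DsRed+ cells was not tested. Each comparison with S100GFP+ cells below is therefore one between PSCs and a pool in which fibroblast and macrophage RNA was abundant, and the part of these cells in the differences was not tested.

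Sdc4 and Gpc1 were higher in PSCs than in either of the other cell types, and Sdc1, Sdc2 and Gpc6 were lower than in both. Against S100GFP+ cells 2 of the 8 tested genes were called higher and 3 lower at an adjusted p under 0.05 (edgeR quasi-likelihood test, Benjamini-Hochberg adjustment over 15330 genes), where 47% of all genes tested were called (22.9% higher and 24.1% lower). Against NG2DsRed+ cells 3 were called higher and 4 lower, where 44% of all genes were called (20.9% higher and 23.1% lower). Between S100GFP+ and NG2DsRed+ cells 3 were higher in S100GFP+ cells and 1 was lower, where 33.3% of all genes were called (18.1% higher and 15.2% lower). Both comparisons with PSCs use the same 9 PSC libraries. The median log2 fold changes of the 8 genes were 0.07, -0.60 and 0.37 in these comparisons, beside 0.04, 0.02 and -0.02 over all genes. Of all genes tested, 13.9% were called higher in PSCs than in either of the other groups and 14.4% were called lower than in either. Non-overlap of libraries was rarer, as every PSC library lay above every other library for 3.24% of genes and below every other library for 3.14%. Sdc4 was among the former, and Sdc1, Sdc2 and Gpc6 were among the latter.

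**Figure D1:**
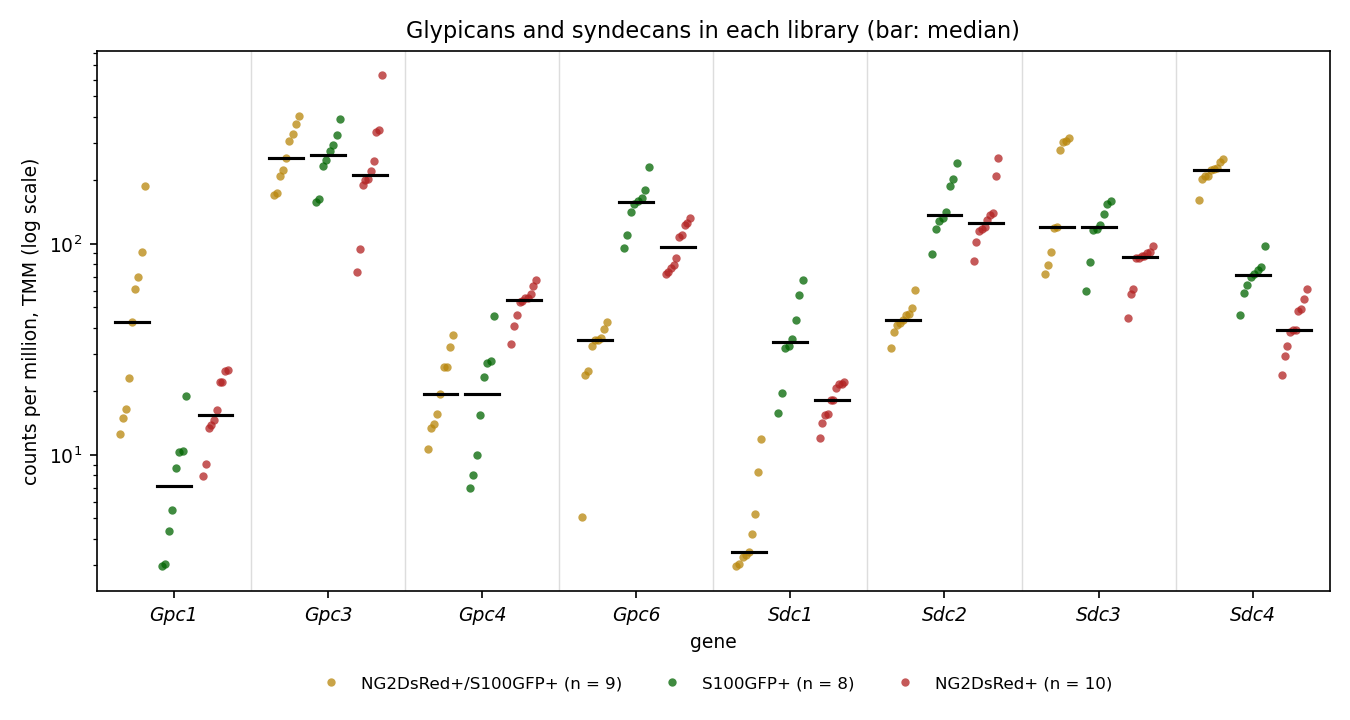
Level of the 8 tested genes in each library. The vertical axis is CPM after TMM scaling on a log scale, each point is 1 library, colours are the 3 sorted cell types and the black bar is the median. PSC points lie apart from both other groups for Sdc4 (above, 162 to 252.5 CPM) and for Sdc1, Sdc2 and Gpc6 (below), while the Gpc3 points of the 3 groups overlap.

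**Figure D2:**
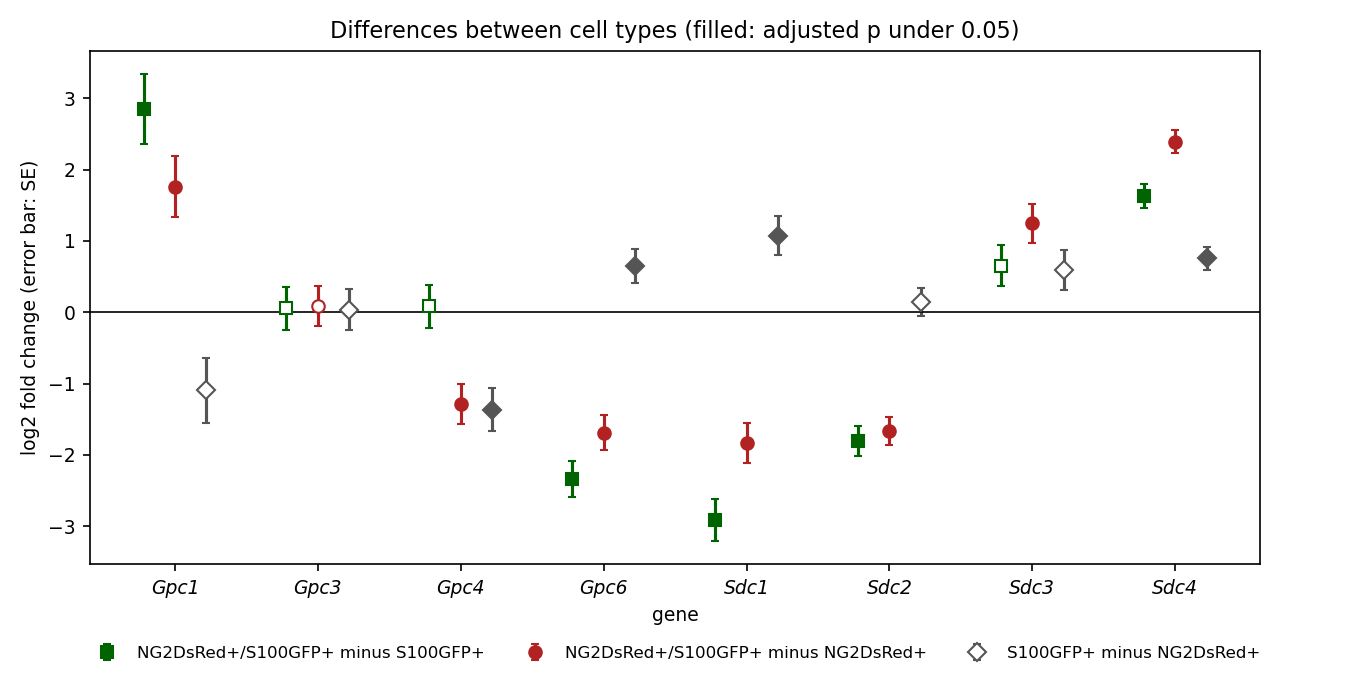
Differences between cell types for the 8 tested genes. The vertical axis is the log2 fold change of edgeR, error bars are SE, marker shapes are the 3 comparisons and filled markers passed an adjusted p of 0.05. Values run from 2.85 for Gpc1 to -2.91 for Sdc1, both between PSCs and S100GFP+ cells, and Gpc3 lies near 0 in all 3 comparisons.

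Among the syndecans, Sdc4 was the one with a higher level in every PSC library than in any other library. It encodes the widely expressed syndecan of focal adhesions, whose tail binds protein kinase C alpha. It had 162 CPM in the lowest PSC library, a median of 223.4 and 252.5 in the highest. In S100GFP+ libraries it ran from 45.88 over a median of 70.95 to 98.11 CPM, and in NG2DsRed+ libraries from 23.94 over 39.0 to 61.15 CPM. No PSC library overlapped either of the other groups, and S100GFP+ libraries lay mostly above NG2DsRed+ libraries (6 of 8 above all 10). Sdc4 was 3.10-fold higher in PSCs than in S100GFP+ cells (log2 fold change 1.63, SE 0.17, adjusted p = 2.79e-09) and 5.24-fold higher than in NG2DsRed+ cells (2.39, SE 0.16, adjusted p = 5.66e-13). It was also 1.69-fold higher in S100GFP+ than in NG2DsRed+ cells (0.76, SE 0.16, adjusted p = 0.000376).

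Sdc3, the syndecan known best from the nervous system, had the widest range of the 4 syndecans within PSCs. Its lowest, median and highest PSC libraries were at 71.68, 119.6 and 318.4 CPM, those of S100GFP+ cells at 59.99, 120.5 and 159.7, and those of NG2DsRed+ cells at 44.47, 86.7 and 98.07. The PSC libraries fell into a lower and a higher set, and 4 of the 9 lay above every S100GFP+ library and 6 above every NG2DsRed+ library. Sdc3 was 2.37-fold higher in PSCs than in NG2DsRed+ cells (log2 fold change 1.25, SE 0.27, adjusted p = 0.000382). The difference from S100GFP+ cells, 0.65 (SE 0.29, adjusted p = 0.061), did not pass the threshold, and neither did that between S100GFP+ and NG2DsRed+ cells (0.59, SE 0.28, adjusted p = 0.104). With limma-voom the first of these was 0.27 (adjusted p = 0.402). It passed with no filter on low counts (adjusted p = 0.046), with a term for the percent of counts that Lars2, Gm23935 and Gm15564 take (0.87, adjusted p = 0.00226), and without PSC library 4, 12, 20, 34 or 36 or NG2DsRed+ library 28 or 35 (0.67 to 0.77, adjusted p = 0.0183 to 0.0498). The second passed with only the groups compared (0.61, adjusted p = 0.0109), with that term (0.60, adjusted p = 0.0246) and without S100GFP+ libraries 14, 17 and 22 (0.78, adjusted p = 0.0415). The fits with that term assume a common slope for all cell types. Within S100GFP+ libraries Sdc3 did not rise with this percent (Pearson r = -0.48, n = 8, permutation test, adjusted p = 0.422). Within NG2DsRed+ libraries it rose by rank (Spearman rho = 0.92, n = 10, permutation test, adjusted p = 0.00864). The Pearson r there, 0.75, did not pass (permutation test, adjusted p = 0.1085).

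Sdc4 and Sdc3 had the highest levels per exon length of the 4 syndecans in PSCs, and for this reason their promoters are shown. Each sequence is the 250 bases before the start of the RefSeq transcript (GRCm38.p6), read on the strand of the gene, 5′ to 3′, and capitals mark GGGCGG or its reverse complement CCGCCC, the core of the GC box that Sp-family factors bind. The Sdc4 window lies at chr2:164443189-164443438 on the minus strand, and since GENCODE M21 also has a transcript of Sdc4 that begins further upstream, this window is in the first intron of that transcript. The Sdc3 window lies at chr4:130792287-130792536 on the plus strand and ends 1 base before the annotated start of the gene.
Sdc4: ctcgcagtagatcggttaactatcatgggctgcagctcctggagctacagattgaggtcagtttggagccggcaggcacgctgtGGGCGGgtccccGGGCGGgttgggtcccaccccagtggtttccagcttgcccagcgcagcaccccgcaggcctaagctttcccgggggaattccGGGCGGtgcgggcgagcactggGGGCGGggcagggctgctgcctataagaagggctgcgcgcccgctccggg
Sdc3: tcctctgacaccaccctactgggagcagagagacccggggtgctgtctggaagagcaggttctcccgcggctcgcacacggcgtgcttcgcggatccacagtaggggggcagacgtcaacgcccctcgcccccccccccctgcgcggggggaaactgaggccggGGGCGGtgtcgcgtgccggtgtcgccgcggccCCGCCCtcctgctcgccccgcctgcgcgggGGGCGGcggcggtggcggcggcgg
The Sdc4 window holds 4 such matches, 19 CpG dinucleotides and 68% G and C. The Sdc3 window holds 3 matches, 32 CpG dinucleotides and 76.4% G and C. GGGCGG on either strand was in all 7 of the member promoters in the table (those of Gpc2, Gpc3, Gpc4, Gpc5, Sdc1, Sdc3 and Sdc4), with 1 to 4 matches each, and in 32.74% of all 32851 windows of 250 bases. ACAAAG (reverse complement CTTTGT), the core of Sox sites, was in 0 of these 7 windows and in 16.46% of all windows, and TATAAA (reverse complement TTTATA) was in the Gpc5 window alone and in 12.37% of all windows. TGANTCA, the AP-1 core, was in 0 of the 7 and in 6.75% of all windows. The 7 windows held 51.2 to 76.4% G and C, and the shares of all windows were not matched for base content. These counts therefore cannot tell whether a motif was enriched or depleted.

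Sdc1 and Sdc2 showed the opposite pattern. Sdc1, known best on epithelial and plasma cells, had 2.97, 3.47 and 11.87 CPM in its lowest, median and highest PSC library. The S100GFP+ libraries held 15.85, 34.13 and 67.69 CPM, and the NG2DsRed+ libraries 12.08, 18.26 and 22.16 CPM. All PSC libraries lay below all others, and the highest level was in S100GFP+ cells, of which 6 of 8 libraries lay above every NG2DsRed+ library. Sdc1 was 7.50-fold lower in PSCs than in S100GFP+ cells (log2 fold change -2.91, SE 0.29, adjusted p = 1.94e-09) and 3.56-fold lower than in NG2DsRed+ cells (-1.83, SE 0.28, adjusted p = 3.14e-06). Between S100GFP+ and NG2DsRed+ cells it was 2.11-fold higher in the former (1.08, SE 0.27, adjusted p = 0.00223).

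Sdc2, a syndecan of fibroblasts and other mesenchymal cells, was at 32.03, 43.68 and 60.62 CPM in PSC libraries (lowest, median, highest). The S100GFP+ libraries were at 89.37, 137.4 and 242.4 CPM and the NG2DsRed+ libraries at 82.98, 124.8 and 254.3 CPM. The PSC libraries were again all below the others, whereas the S100GFP+ and NG2DsRed+ libraries overlapped over most of their range. Sdc2 was 3.50-fold lower in PSCs than in S100GFP+ cells (log2 fold change -1.81, SE 0.21, adjusted p = 2e-08) and 3.17-fold lower than in NG2DsRed+ cells (-1.66, SE 0.20, adjusted p = 5.67e-08). The difference between the latter groups was 0.14 (SE 0.20, adjusted p = 0.63). The cell types that held more Sdc1 and Sdc2 than PSCs also held more fibroblast marker RNA, as given above. Within S100GFP+ (n = 8) and NG2DsRed+ (n = 10) libraries, Pearson's r of Sdc1 with the fibroblast sum was -0.13 and 0.30 (permutation tests, adjusted p = 0.8405 and 0.5855). For Sdc2 it was 0.88 and 0.90 (permutation tests, adjusted p = 0.0583 and 0.00288). The part of fibroblasts in the Sdc1 and Sdc2 differences was not tested.

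Among the glypicans, Gpc1 was the one called higher in PSCs. Gpc1 is known from muscle and the nervous system and binds growth factors. Its lowest, median and highest levels were 12.62, 42.79 and 187.3 CPM in PSC libraries, 2.96, 7.09 and 19.09 CPM in S100GFP+ libraries and 7.91, 15.53 and 25.19 CPM in NG2DsRed+ libraries. The ranges overlapped, with 6 of the 9 PSC libraries above every S100GFP+ library and 5 above every NG2DsRed+ library. Gpc1 was 7.23-fold higher in PSCs than in S100GFP+ cells (log2 fold change 2.85, SE 0.49, adjusted p = 1.6e-05) and 3.39-fold higher than in NG2DsRed+ cells (1.76, SE 0.43, adjusted p = 0.00115). The size of the latter depended on the method, as limma-voom with sample quality weights gave 0.75 (adjusted p = 0.038), and without PSC library 18, the highest, edgeR gave 1.35 (adjusted p = 0.00374). Between S100GFP+ and NG2DsRed+ cells the log2 difference of -1.09 (SE 0.46, adjusted p = 0.0664) did not pass. It passed in 6 of the 36 fits, among them those without PSC library 18 and without S100GFP+ library 33 (-1.40 to -1.07, adjusted p = 0.0223 to 0.0333).

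Gpc6 was lower in PSCs. It encodes a glypican that astrocytes release and that is known to act on synapses in the brain, as does its relative Gpc4. PSC libraries held 5.08, 35.16 and 42.62 CPM (lowest, median, highest), S100GFP+ libraries 95.62, 157.5 and 232.4 CPM and NG2DsRed+ libraries 72.04, 96.83 and 132.8 CPM. No PSC library reached the range of either of the other cell types. Gpc6 was 5.07-fold lower in PSCs than in S100GFP+ cells (log2 fold change -2.34, SE 0.26, adjusted p = 8.21e-09) and 3.23-fold lower than in NG2DsRed+ cells (-1.69, SE 0.24, adjusted p = 1.29e-06). Its 1.57-fold higher level in S100GFP+ than in NG2DsRed+ cells (0.65, SE 0.24, adjusted p = 0.0351) was not stable. This call was lost when S100GFP+ library 1, 14, 27 or 33 or NG2DsRed+ library 2, 13, 15, 21 or 26 was left out (log2 fold changes 0.54 to 0.64), with no filter on low counts (0.61, adjusted p = 0.0502) and without S100GFP+ libraries 14, 17 and 22 together (0.56, adjusted p = 0.123).

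Gpc4 had a pattern of its own, since it separated NG2DsRed+ cells from both other groups. It was at 10.72, 19.45 and 36.97 CPM in PSC libraries (lowest, median, highest), at 7, 19.41 and 45.41 CPM in S100GFP+ libraries and at 33.51, 54.24 and 67.5 CPM in NG2DsRed+ libraries. Of the PSC libraries 8 of 9, and of the S100GFP+ libraries 7 of 8, lay below every NG2DsRed+ library. Gpc4 was 2.44-fold lower in PSCs (log2 fold change -1.28, SE 0.29, adjusted p = 0.000484) and 2.58-fold lower in S100GFP+ cells (-1.37, SE 0.30, adjusted p = 0.000586) than in NG2DsRed+ cells. PSCs and S100GFP+ cells differed by 0.08 (SE 0.30, adjusted p = 0.847), and leaving out S100GFP+ libraries 14, 17 and 22 took this to 0.72 (adjusted p = 0.0524). These 3 libraries had sums of 5 endothelial markers of 686.9 to 1980 CPM and Gpc4 at 23.29 to 45.41 CPM, whereas the other 5 S100GFP+ libraries had sums of 117.6 to 176.1 CPM and Gpc4 at 7 to 27.74 CPM. The part of endothelial RNA in the Gpc4 differences was not tested.

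Gpc3, whose loss causes overgrowth in mice and people, had high levels in every group and did not pass the test in any comparison. Its lowest, median and highest libraries were at 170.6, 256.1 and 402.3 CPM in PSCs, at 157.7, 262.3 and 390.3 CPM in S100GFP+ cells and at 73.9, 212 and 628.8 CPM in NG2DsRed+ cells. The PSC range lay within that of NG2DsRed+ cells and almost matched that of S100GFP+ cells. The log2 differences were 0.05 (SE 0.30, adjusted p = 0.899) between PSCs and S100GFP+ cells, 0.09 (SE 0.28, adjusted p = 0.818) between PSCs and NG2DsRed+ cells and 0.04 (SE 0.29, adjusted p = 0.938) between the latter groups. The sign of each of these differences turned in at least 1 alternative fit.

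Gpc2 and Gpc5 were near the limit of detection. Gpc2, known from developing neurons, had 7 counts over the 9 PSC libraries (in 4 of them), 9 over the 8 S100GFP+ libraries (in 6) and 9 over the 10 NG2DsRed+ libraries (in 4). Gpc5 had 1 count in PSCs, 16 in S100GFP+ cells (in 2 libraries) and 0 in NG2DsRed+ cells, where a total of 0 allows up to 3 counts. No difference in Gpc2 was detectable at this depth, and the Gpc5 counts of S100GFP+ cells came almost wholly from library 22, with 2.47 CPM. Exons of Gpc2 overlap those of Gm43720 on the same strand, and exons of Gpc5 overlap those of Gm20713 on the opposite strand. How reads there were counted is not known, and the part of these overlaps in the low counts was not tested. Among the other genes, reads of Gpc1 could overlap Ankmy1 and reads of Sdc3 could overlap Gm12970 and Gm26716, each on the opposite strand. Exons of Gpc3, Gpc4, Gpc6, Sdc1, Sdc2 and Sdc4 overlap those of no other gene in GENCODE M21.

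Their places in the genome (GRCm38) put 4 of the 6 glypican genes in neighbouring pairs. Gpc4 (chromosome X, 52053021 to 52165252) and Gpc3 (X, 52272426 to 52613950) lie side by side on the minus strand. Gpc5 (14, 115092215 to 116525179) and Gpc6 (14, 116925315 to 117976544) lie side by side on the plus strand. Neighbours did not share a pattern, as Gpc3 was called in no comparison and Gpc4 in 2, and Gpc5 had almost no counts while Gpc6 was lower in PSCs than elsewhere. The syndecan genes are on 4 chromosomes, with Sdc4 on chromosome 2 (164424247 to 164443887, minus strand), Sdc3 on 4 (130792537 to 130826319), Sdc1 on 12 (8771323 to 8793715) and Sdc2 on 15 (32920723 to 33034935).

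Levels of different genes were set side by side as CPM per kb of exon (the union of all exons of the gene). Gpc3 had the highest mean level in each cell type, at 101 ± 31.5 CPM per kb (SD, n = 9) in PSCs, 97.2 ± 29.2 (n = 8) in S100GFP+ cells and 94.6 ± 58.8 (n = 10) in NG2DsRed+ cells. What came next differed between them. In PSCs Sdc4 followed at 85.5 ± 10.5 CPM per kb, with an SD range that overlapped that of Gpc3, and Sdc3 at 31.3 ± 18.4 came well below it. Sdc2 (12.6 ± 2.25), Gpc1 (11.2 ± 10.9) and Gpc4 (8.17 ± 3.46 CPM per kb) overlapped their neighbours in this order. Gpc6 (4.76 ± 1.76) and Sdc1 (1.33 ± 0.80 CPM per kb) were the lowest of the tested genes. In S100GFP+ cells Sdc2 was the second at 44.1 ± 14.5 CPM per kb, then came Sdc4 (27.5 ± 5.99), Gpc6 (24.1 ± 6.58), Sdc3 (19.9 ± 5.70), Sdc1 (9.98 ± 4.62) and Gpc4 (7.74 ± 4.94), each with an SD range that overlapped the next, and Gpc1 was the last at 1.56 ± 1.05 CPM per kb. In NG2DsRed+ cells the order was Sdc2 (39.9 ± 14.7), Gpc4 (19.8 ± 3.83), Sdc4 (16.3 ± 4.57), Gpc6 (15.4 ± 3.69), Sdc3 (13.2 ± 2.96), Sdc1 (4.74 ± 0.94) and Gpc1 (3.29 ± 1.22 CPM per kb). Gpc4 to Sdc3 overlapped each with the next there, as did Sdc1 and Gpc1.

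**Figure D3:**
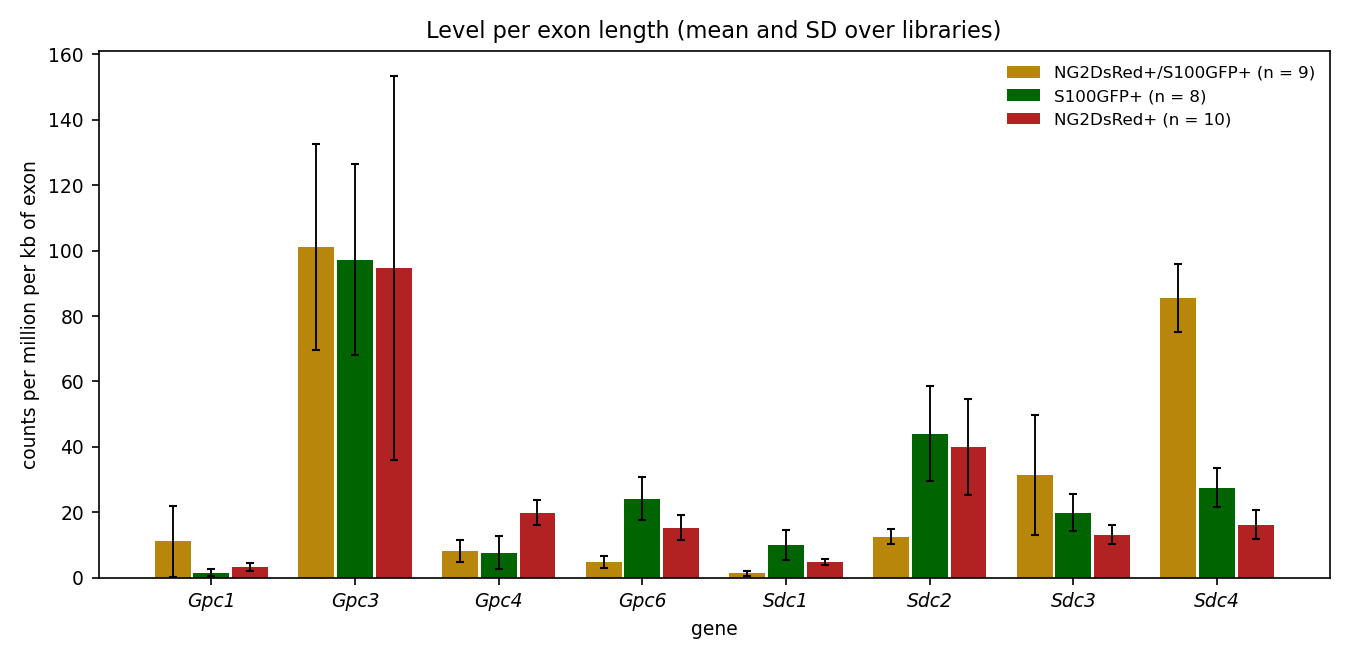
Level per exon length of the 8 tested genes by cell type. Bars are the mean CPM per kb of exon over the libraries, error bars are SD and the axis begins at 0. Gpc3 stands near 100 in each cell type (94.6 to 101), Sdc4 reaches 85.5 in PSCs against 27.5 and 16.3 in S100GFP+ and NG2DsRed+ cells, and Sdc2 is the second highest bar in the latter 2.

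Summed per exon length, syndecans had their highest mean in PSCs and the glypican sum varied little between cell types. Glypicans summed to 125 ± 43.2 CPM per kb in PSCs, 131 ± 35.9 in S100GFP+ cells and 133 ± 61.1 in NG2DsRed+ cells, which differed by less than their spread. Most of this sum was Gpc3 (101, 97.2 and 94.6 CPM per kb), which was called in no comparison. Gpc1, Gpc4 and Gpc6 each differed between cell types, as given above. Syndecans summed to 131 ± 26.1, 102 ± 15.7 and 74.2 ± 14.9 CPM per kb in the same order. Glypicans thus made up 48.1% ± 4.83 (SD) of the sum in PSCs, 55.7% ± 5.72 in S100GFP+ cells and 62.3% ± 7.10 in NG2DsRed+ cells, and the ranges (41.48 to 56.63%, 45.09 to 63.42% and 48.18 to 71.08%) overlapped. Sdc4 alone made up 34.9% of the sum in PSCs, 12.2% in S100GFP+ cells and 8.53% in NG2DsRed+ cells. These shares are descriptions with no test.

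Levels of some of the genes moved with other features of the libraries within a cell type. The rows of Lars2, Gm23935 and Gm15564 took 3.64 to 36.6% of all counts in PSC libraries, 19.5 to 39.1% in S100GFP+ libraries and 12.5 to 40.0% in NG2DsRed+ libraries. The PSC libraries lay on either side of a gap, with 5 under 20% (3.6 to 17.8%) and 4 over it (27.7 to 36.6%). Sdc3 was at 71.68 to 119.6 CPM in the 5 and at 277.4 to 318.4 CPM in the 4, and Gpc1 at 12.62 to 42.79 and 60.89 to 187.3 CPM. Gpc3 (170.6 to 256.1 and 306.4 to 402.3 CPM) and Gpc4 (10.72 to 19.45 and 26.11 to 36.97 CPM) were likewise apart. Sdc4 (162 to 252.5 and 223.4 to 244.6 CPM), Sdc1, Sdc2 and Gpc6 overlapped between the 2 sets of PSC libraries. Since the PSC libraries fall into sets on either side of this gap, correlations pooled over them are not given. With the share as a term in the edgeR fit, Sdc3 differed between PSCs and NG2DsRed+ cells by 1.47 (adjusted p = 1.92e-06) and Gpc1 by 2.29 (adjusted p = 9.05e-08) on the log2 scale. This fit assumes a common slope for all cell types.

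Within NG2DsRed+ libraries, where the share had no such gap, Gpc1 rose with it (Pearson r = 0.94, Spearman rho = 0.93, n = 10, permutation tests, adjusted p = 0.00288 and 0.00864 over 72 relations, r = 0.84 without the 2 libraries farthest from the median share). Sdc3 also rose with the share by rank (rho = 0.92, n = 10, permutation test, adjusted p = 0.00864). Its Pearson r of 0.75 did not pass (permutation test, adjusted p = 0.1085, r = 0.45 without the 2 farthest). Gpc3 rose in NG2DsRed+ libraries with the summed fibroblast markers (r = 0.97, rho = 0.96, n = 10, permutation tests, adjusted p = 0.00288 and 0.00576, r = 0.92 without the 2 farthest). Sdc2 did so too (r = 0.90, rho = 0.87, n = 10, permutation tests, adjusted p = 0.00288 and 0.0271, r = 0.87 without the 2 farthest). The NG2DsRed+ library with the most fibroblast RNA also had the most Gpc3 and Sdc2. The relations between these levels were chosen after the data had been seen, and how far other cell types contribute to the levels of Gpc3 and Sdc2 was not tested.

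**Figure D4:**
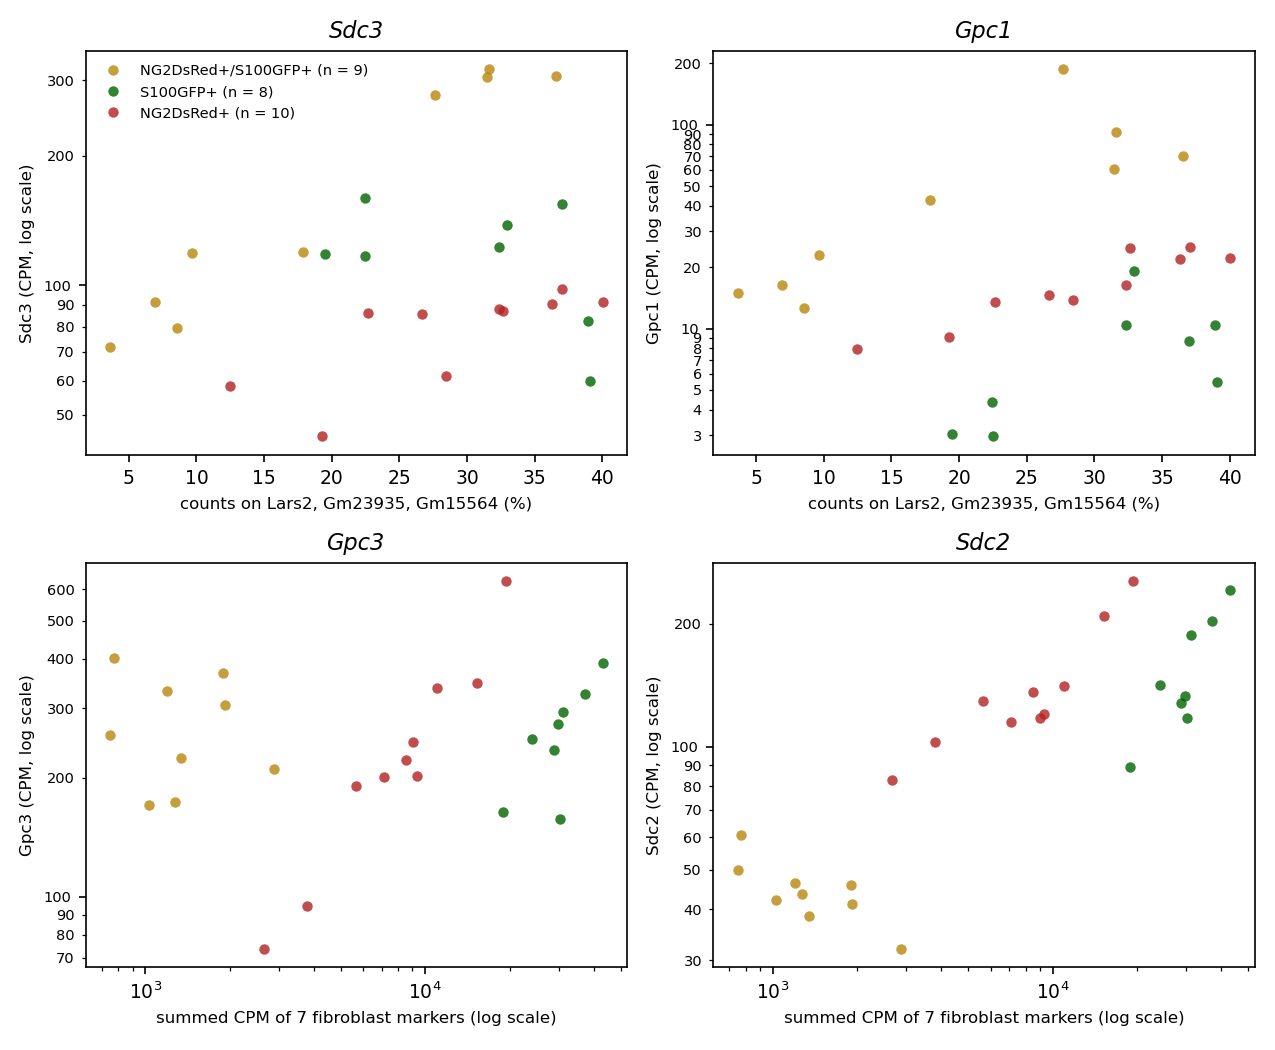
Sdc3 and Gpc1 against the percent of counts on Lars2, Gm23935 and Gm15564 (top), and Gpc3 and Sdc2 against the summed CPM of 7 fibroblast markers on a log scale (bottom). Each point is 1 library, vertical axes are CPM on a log scale and colours are the cell types. The 4 PSC libraries over 20% hold the highest Sdc3 (277.4 to 318.4 CPM), and Gpc3 and Sdc2 climb with the fibroblast sum among NG2DsRed+ libraries (r of 0.97 and 0.90).

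Genes that make, modify or bind the sugar chains were taken from 8 lists. Of 72 listed genes for heparan sulfate and for partners of the core proteins, 58 were tested. Against S100GFP+ cells 15 were higher in PSCs and 24 lower (25.9% and 41.4%, median log2 fold change -0.16), whereas 22.9% of all genes tested were higher and 24.1% lower. Against NG2DsRed+ cells 18 were higher and 15 lower (31% and 25.9%, median -0.02), beside 20.9% and 23.1% of all genes. These shares of all genes are the background for the counts of each list, which are descriptions and say nothing particular to a list. Of the 10 tested genes that start and extend the chain, 2 were higher and 1 lower in PSCs than in S100GFP+ cells, and 4 were higher and 1 lower than in NG2DsRed+ cells. Xylt1, which adds the first sugar to the core protein, was at 134 ± 34.0 CPM in PSCs, 18.1 ± 4.20 in S100GFP+ cells and 22.1 ± 8.25 in NG2DsRed+ cells (log2 fold changes 2.88 and 2.60, adjusted p = 2.06e-11 and 2.81e-11). Ext1, a subunit of the chain polymerase, was lower in PSCs than in S100GFP+ cells (-1.34, adjusted p = 1.31e-06) and differed from NG2DsRed+ cells by -0.38 (adjusted p = 0.0913). Extl2 was higher in PSCs than in NG2DsRed+ cells (0.87, adjusted p = 0.000748), and the lower level of Extl3 in this comparison (-0.48, adjusted p = 0.0427) was called in 14 of 36 fits.

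The next list holds enzymes that modify the chain. Of 12 tested, 5 were higher and 4 lower in PSCs than in S100GFP+ cells, and 5 were higher and 3 lower than in NG2DsRed+ cells. Ndst3, which exchanges acetyl for sulfate groups on the glucosamine, stood at 24.0 ± 10.7 CPM in PSCs, 0.91 ± 0.62 in S100GFP+ cells and 3.14 ± 0.90 in NG2DsRed+ cells (log2 fold changes 4.74 and 2.93, adjusted p = 1.1e-10 and 2.55e-08). Hs2st1, a sulfotransferase for the uronic acid, was higher in PSCs than in both (1.67 and 1.20, adjusted p = 8.83e-13 and 1.27e-10). The same held for Slc35b2, which carries the sulfate donor into the Golgi (1.36 and 1.99, adjusted p = 5.09e-05 and 6.32e-08). Hs3st3b1, which adds a rarer sulfate to the glucosamine, was lower than in both (-3.09 and -2.30, adjusted p = 9e-05 and 0.00155), although it had only 0.90 ± 1.45 CPM in PSCs.

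Outside the cell, genes for enzymes that strip or cut finished chains were low in PSCs. All 3 tested members of that list were lower in PSCs than in the other 2 groups and higher in S100GFP+ than in NG2DsRed+ cells. Sulf1 and Sulf2, which remove sulfate groups from chains at the cell surface, were at 10.4 ± 3.77 and 8.79 ± 4.04 CPM in PSCs. In S100GFP+ cells they were at 127 ± 38.4 and 110 ± 34.8 CPM, and in NG2DsRed+ cells at 65.6 ± 35.0 and 17.4 ± 7.08 CPM. Sulf1 thus differed by -3.60 and -2.65 and Sulf2 by -3.64 and -0.98 on the log2 scale (adjusted p = 1.32e-10, 2.21e-08, 8.53e-12 and 0.00202). Hpse, the heparanase that cuts the chain, was at 0.18 ± 0.19 CPM in PSCs, 15.5 ± 4.29 in S100GFP+ cells and 0.57 ± 0.52 in NG2DsRed+ cells (-6.29 and -1.57, adjusted p = 5.6e-10 and 0.034). The second of these rested on few counts and lost its call (adjusted p of 0.054 to 0.105) without PSC library 4, 6, 12 or 31 or NG2DsRed+ library 7, 28 or 30, and without S100GFP+ libraries 14, 17 and 22 (adjusted p = 0.0508). The macrophage sums of the S100GFP+ libraries, given above, were also the highest of the 3 cell types, and their part in the Hpse level was not tested.

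In the lysosome, 5 of 8 genes for breakdown of the chain were lower in PSCs than in S100GFP+ cells and none was higher. Naglu, Gusb and Ids were lower than in S100GFP+ cells by 0.74, 0.96 and 0.45 on the log2 scale (adjusted p = 0.0196, 0.000519 and 0.0227), and their differences from NG2DsRed+ cells were 0.51, -0.05 and 0.01 (adjusted p = 0.0945, 0.855 and 0.981). The Naglu and Ids calls did not hold in every alternative fit.

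Core proteins can be released from the membrane by proteases and, for glypicans, by cleavage of the anchor. Of 6 tested genes, 1 was higher and 5 lower in PSCs than in S100GFP+ cells, and 2 were higher and 3 lower than in NG2DsRed+ cells. Adam17, a protease that sheds syndecans, was higher in PSCs than in both (194 ± 61.0 CPM against 77.3 ± 11.7 and 50.8 ± 10.3, log2 fold changes 1.33 and 1.93, adjusted p = 2.53e-07 and 8.52e-11). Gdpd5, which cleaves glypican anchors, was lower than in both (-1.56 and -2.10, adjusted p = 0.00121 and 2.76e-05). Mmp2 was lower than in S100GFP+ cells (-0.66, adjusted p = 0.0346, called in 27 of 36 fits) and higher than in NG2DsRed+ cells (0.70, adjusted p = 0.0197). Mmp9 had 1 count over all PSC libraries, 104 over the S100GFP+ and 66 over the NG2DsRed+ libraries. The anchor lipase Notum was under the filter, with mean levels of 0.10, 0.22 and 0.07 CPM.

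Among surface partners, 3 of 7 tested genes were higher and 1 lower in PSCs than in S100GFP+ cells, and the counts against NG2DsRed+ cells were also 3 and 1. The 3 higher ones were the receptor phosphatases of the LAR type, Ptprs, Ptprf and Ptprd, whose outer domains bind heparan sulfate and glypicans. Ptprs was at 254 ± 66.7 CPM in PSCs, 98.3 ± 34.5 in S100GFP+ cells and 85.6 ± 28.2 in NG2DsRed+ cells (log2 fold changes 1.37 and 1.57, adjusted p = 5.14e-06 and 2.23e-07). Ptprd reached 155 ± 20.1 CPM in PSCs (2.24 and 3.59, adjusted p = 3.72e-10 and 1.62e-14), and Ptprf 122 ± 28.3 CPM (1.49 and 1.60, adjusted p = 6.86e-07 and 7.37e-08). Unc5b, a netrin receptor of a family that binds Gpc3, was lower than in NG2DsRed+ cells (-3.65, adjusted p = 9.94e-09) and, in 26 of 36 fits, lower than in S100GFP+ cells (-1.01, adjusted p = 0.0323).

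Of 8 genes for partners of the syndecan tail, 2 were higher and 4 lower in PSCs than in S100GFP+ cells, and 3 were higher and 2 lower than in NG2DsRed+ cells. Prkca, the kinase that binds the Sdc4 tail, was at 61.0 ± 10.9 CPM in PSCs, 35.5 ± 6.34 in S100GFP+ cells and 17.0 ± 5.18 in NG2DsRed+ cells (0.78 and 1.84, adjusted p = 0.000244 and 8.73e-11). It thus had the same order of the 3 cell types as Sdc4. Tiam1, an exchange factor for Rac that binds the Sdc1 tail, was higher in PSCs than in NG2DsRed+ cells (1.34, adjusted p = 0.0086) and lower than in S100GFP+ cells (-2.34, adjusted p = 3.84e-05). Ezr, which links membrane proteins to actin, was higher in PSCs than in NG2DsRed+ cells (2.10, adjusted p = 1.06e-08), and its difference from S100GFP+ cells was 0.13 (adjusted p = 0.676). Sdcbp2, a syntenin, was lower than in both (-1.44 and -1.93, adjusted p = 0.00942 and 0.000523) from levels of 0.88 ± 0.65, 2.45 ± 0.98 and 3.45 ± 1.42 CPM.

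Of the other proteoglycans with heparan sulfate, Agrn, which encodes agrin, had its highest level in PSCs. It was at 296 ± 73.4 CPM in PSCs, 38.4 ± 27.5 in S100GFP+ cells and 137 ± 24.9 in NG2DsRed+ cells (2.95 and 1.11, adjusted p = 1.23e-09 and 0.000628). Col18a1, which encodes a collagen of basement membranes, was higher than in S100GFP+ cells (2.04, adjusted p = 4.68e-09) and differed from NG2DsRed+ cells by -0.06 (adjusted p = 0.825). Hspg2, which encodes perlecan, was lower than in NG2DsRed+ cells (-0.86, adjusted p = 0.00916) and differed from S100GFP+ cells by 0.08 (adjusted p = 0.829). Tgfbr3, the coreceptor betaglycan, was lower than in S100GFP+ cells (-0.94, adjusted p = 0.000709) and differed from NG2DsRed+ cells by -0.17 (adjusted p = 0.543).

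**Figure D5:**
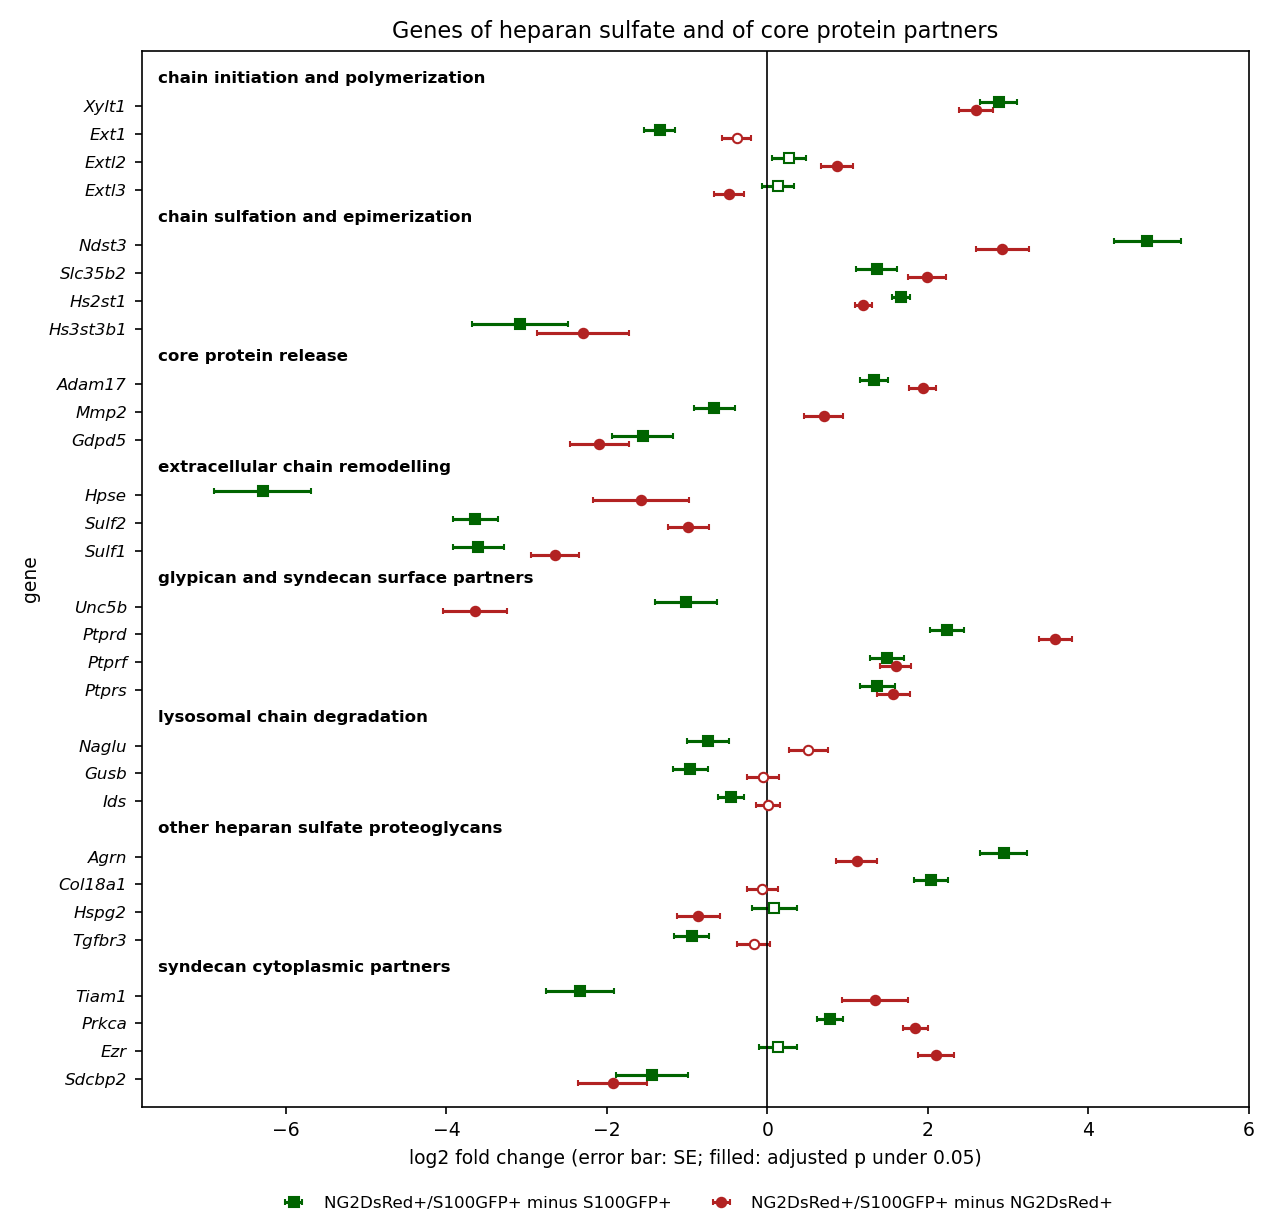
Log2 fold changes of named genes around the core proteins, PSCs minus S100GFP+ cells (squares) and PSCs minus NG2DsRed+ cells (circles). The horizontal axis is the edgeR log2 fold change, error bars are SE, filled markers passed an adjusted p of 0.05, and genes are grouped by role. Sulf1, Sulf2 and Hpse lie left of 0 in both comparisons (-0.98 to -6.29), and Ptprs, Ptprf, Ptprd, Xylt1, Ndst3 and Agrn lie right of it in both (1.11 to 4.74).

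The genes most like each member over the 27 libraries were found by Pearson's r of log2 CPM, over 3 cell types that share much of their difference. For Sdc4 they were P2ry12 (r = 0.97), Nfatc2 (0.96) and Chl1 (0.96), and for Gpc1 Mtss1l (0.95), Csrp1 (0.93) and Strn4 (0.92). Gpc6 was most like Creb3l1, Nid1 and Fhl1 (each r = 0.96), and Sdc1 like Map2k3 (0.95), Smim3 (0.94) and Diaph1 (0.94). Sdc2 was most like Dcn, the fibroblast proteoglycan decorin (0.93), Igfbp5 (0.93) and Nnmt (0.93). Sdc3 was nearest to Rara (0.90), Papss1, which makes the sulfate donor (0.84), and Vps37c (0.81), and Gpc4 to Dtx3 (0.92), Nckap5l (0.92) and Ier5l (0.91). Gpc3 had no near neighbour, with r = 0.76 for Fez1, Maged2 and Pam. These values are descriptions with no test.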

How the data were processed

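RNA of sorted PSCs, S100GFP+ cells and NG2DsRed+ cells was amplified with a SMART-Seq v4 kit and sequenced. The authors used ea-utils and Btrim for trimming, HISAT2 for alignment (to GRCm38 per the submitters' processing notes) and HTSeq for counting, and the deposited table holds these whole-number counts per gene without normalization. Tool versions, annotation release and strand setting were not given in the sources used here. How reads in exons of overlapping genes were counted is therefore not known. Count columns were matched to samples by library number, which gave 27 of the 36 labelled libraries a column. After quality control the study kept 1 S100GFP+ replicate fewer than the table holds, without naming it, and all columns were used. Libraries of one cell type were not identical and differed by more than sampling noise (lowest ratio of chi-square to its degrees of freedom 8.93). A replicate was 1 mouse per the study's methods, but whether libraries of different cell types shared a mouse was not stated.

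In R 4.3.3, edgeR 4.0.16 was run with TMM scaling, filterByExpr (minimum count 10), a single quasi-likelihood fit for all groups, and p-values were adjusted by Benjamini-Hochberg over 15330 genes (threshold 0.05). CPM used TMM library sizes, log2 levels a prior count of 2, and the floor was 3 counts over a cell type. PCR copies cannot be told from molecules, so floors cover counting error only. GENCODE M21 gave symbols, exon lengths and positions for 99.56% of identifiers, and RefSeq (GRCm38.p6) gave promoters of 7 of the 10 genes. The processing was tested on simulated counts. There edgeR recovered 48.4% of log2 changes of 1 in each of the comparisons of PSCs with S100GFP+ and with NG2DsRed+ cells. Of log2 changes of 2 it recovered 86.5 and 88.5%. Of its calls 5.88 and 3.7% were false, and of those of DESeq2 16.17 and 11.45%. A gene without a call may thus still differ. Alternatives were DESeq2 1.42.0 (Wald test, and its size factors in edgeR), limma-voom (limma 3.58.1), other filters, only the groups compared, a term for the percent of counts that Lars2, Gm23935 and Gm15564 take, no S100GFP+ libraries 14, 17 and 22, and leaving out each library.

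The genes and lists were chosen with earlier results of these data known. All 10 genes are named. One gene of the pathway lists is not reported here. Of each pathway list, up to 4 genes are named, those called in the most comparisons, then those with the largest log2 fold change, and other genes of the lists only where a sentence needs them. For each tested gene the 3 most correlated genes are named, with Cspg4 and S100b for the gates.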

Additional observations from a re-analysis of the deposited data

Results flagged for a closer look

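In 4 of the 24 sets of libraries examined (8 genes in 3 cell types), 1 library lay far from the others by Dixon's test, which chance alone gives in about 1 set of 20. Gpc1 was at 187.3 CPM in PSC library 18, against a median of 42.79 CPM in PSCs. Gpc6 was at 5.08 CPM in the same library, the lowest of the PSC libraries, whose median was 35.16 CPM. Library 18 also had the highest PSC sum of 5 muscle fibre markers (1421 CPM, PSC median 370.8). Its sum of 6 macrophage and leukocyte markers was the highest of the PSC libraries too (570.1 CPM, PSC median 128.1). Gpc1 was at 19.09 CPM in S100GFP+ library 33, against a median of 7.09 CPM. Gpc3 was at 628.8 CPM in NG2DsRed+ library 28, against a median of 212 CPM, and this library also had the most fibroblast marker RNA of its group (19360 CPM). The part of other cells in these libraries was not tested.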

How the results depend on the processing

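Of the 16 calls on the 8 tested genes, 15 held their direction and their side of the threshold in all 36 fits, and the other was the higher level of Gpc6 in S100GFP+ than in NG2DsRed+ cells. The count of the 8 genes called lower in S100GFP+ than in NG2DsRed+ cells rose from 1 to 2, with Gpc1 added, with no filter on low counts, with limma-voom, with only the groups compared and with a term for the percent of counts that Lars2, Gm23935 and Gm15564 take (the share), and ran from 1 to 2 over fits that left out 1 library (2 without PSC library 18 or S100GFP+ library 33). Of the 52 calls on named pathway genes 44 held in every fit, and the others were Extl3 and Hpse against NG2DsRed+ cells and Ids, Mmp2, Naglu, Sdcbp2, Tgfbr3 and Unc5b against S100GFP+ cells. Single libraries decided 5 of these. Without PSC library 12, 18, 20 or 36 the calls of Ids, Mmp2 and Unc5b were lost, that of Ids also without S100GFP+ library 11 (-0.40 to -0.34), that of Mmp2 also without PSC library 4 or S100GFP+ library 1 or 14 (-0.64 to -0.49) and that of Unc5b also without S100GFP+ library 17 or 22 (-0.97 to -0.75). The Extl3 call was lost without any of 16 libraries (-0.47 to -0.33), and the Hpse call without any of 7 (-1.49 to -1.21). Naglu passed against NG2DsRed+ cells without PSC library 4, 12, 20 or 36 (0.61 to 0.65).

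Differences near 0 changed sign, none of them called. For Gpc3 the difference between PSCs and S100GFP+ cells was -0.0865 with limma-voom and -0.0265 to 0.157 on leaving out 1 library, that between PSCs and NG2DsRed+ cells -0.0055 to 0.407, and that between S100GFP+ and NG2DsRed+ cells -0.0682 to 0.330, with -0.00498 without the filter and -0.0445 without S100GFP+ libraries 14, 17 and 22. Leaving out 1 library gave -0.0511 to 0.352 for Gpc4 and -0.0958 to 0.214 for Hspg2 between PSCs and S100GFP+ cells. Against NG2DsRed+ cells it gave -0.124 to 0.114 for Col18a1, -0.176 to 0.0568 for Gusb, -0.256 to 0.0164 for Tgfbr3 and -0.0954 to 0.149 for Ids. Ids was at -0.00185 with a mean count of at least 5 as the filter and at -0.00566 with limma-voom. With the share as a term Gusb was at 0.0657, Tgfbr3 at 0.0627 and Ezr, against S100GFP+ cells, at -0.0171, and without S100GFP+ libraries 14, 17 and 22 Ezr was at -0.240. Without the filter the median log2 fold change of all genes was -0.97 between PSCs and S100GFP+ cells and 0.78 between S100GFP+ and NG2DsRed+ cells. The cause of these changes was not tested.

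No paired analysis was possible, because the labels do not say which libraries, if any, came from the same mouse. The tests treated all libraries as independent. Depth limits Gpc2 and Gpc5, whose exons also overlap those of other genes. The levels per exon length depend on which transcripts are used. Gpc6 was at 7.37, 37.4 and 23.8 CPM per kb of the longest transcript in PSCs, S100GFP+ and NG2DsRed+ cells. Sdc1 was at 5.72 CPM per kb of the longest transcript in NG2DsRed+ cells. With plain library totals in place of TMM scaling, Sdc4 was at 101 and Sdc2 at 14.9 CPM per kb of exon in PSCs.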
